A study of Mus musculus with 18 samples.

Results

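The chromatin at the genes of 4 interferon-inducible chemokines, Cxcl9, Cxcl10, Cxcl11 and Cxcl16, was followed in mouse bone marrow-derived macrophages. A region of the deposited table was taken as a member where its midpoint lay in one of these gene bodies or had one of them as its nearest protein-coding gene body within 50 kb, and the shortest body took a midpoint that lay in several. Of 53796 regions, 3 were members. Cxcl10 held 2 of them and Cxcl16 held 1, while Cxcl9 and Cxcl11 held 0. The low count follows from the map: Art3, a gene of the ADP-ribosyltransferase family, runs from 92331799 to 92414628 on chromosome 5 and spans Cxcl10 (92346638 to 92348889) and Cxcl11 (92359544 to 92363296), so regions between these genes fall to Art3 by distance. The 13 regions with a midpoint inside the Art3 body, including the 2 at Cxcl10, are therefore described as one stretch, and 31 regions within 50 kb of any of the 4 genes were listed, 17 on chromosome 5 and 14 on chromosome 11. Coordinates are of mm10 (GRCm38), and distance does not show which gene a region acts on.

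Macrophages were grown from bone marrow of wildtype C57BL/6 mice aged 6 to 12 weeks in M-CSF at 20 ng/mL, with replating on day 7, and ATAC-seq, in which a transposase cuts and tags open DNA, measured their accessible chromatin. The cells received a first treatment for 4 h and a second for 4 h, and each group is named by the initials of both: CL was CpG then LPS, PL polyI:C then LPS, MP medium then polyI:C, MC medium then CpG, ML medium then LPS, CT CpG then TNF, PT polyI:C then TNF, MT medium then TNF, and MM medium throughout. CpG (100 nM) is a DNA ligand of TLR9, LPS (1 ng/mL) a bacterial ligand of TLR4, polyI:C (1 µg/mL) a mimic of double-stranded RNA, and TNF (10 ng/mL) an inflammatory cytokine. Each group had 2 libraries, which the labels tie to no separate mice or cultures. The p-values thus measure the spread between libraries, which may be technical. MP entered the fit as 1 sample, so p-values of its differences take their spread from the other groups.

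CXCL9, CXCL10 and CXCL11 are secreted ligands of the receptor CXCR3 and draw activated T cells and natural killer cells to inflamed tissue. Their genes are induced by interferons through JAK kinases and interferon regulatory factors (IRFs), and Cxcl10 also by IRF3 and NF-kB directly downstream of Toll-like receptors. In C57BL/6 mice Cxcl11 makes no functional protein, and RefSeq lists it as a transcribed pseudogene. CXCL16 differs in form: it is anchored in the membrane, is released by the proteases ADAM10 and ADAM17, binds the receptor CXCR6 and also takes up oxidised lipoproteins.

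The promoter sequences of Cxcl10 and Cxcl9 are printed because one lay under an accessible region and the other under none. Both are the 250 bases before the gene start on the minus strand, from RefSeq on GRCm38.p6, at chr5:92348890-92349139 for Cxcl10 and chr5:92328080-92328329 for Cxcl9, and Cxcl11 and Cxcl16 were not matched. Capitals mark the motif matches found on either strand.
Cxcl10: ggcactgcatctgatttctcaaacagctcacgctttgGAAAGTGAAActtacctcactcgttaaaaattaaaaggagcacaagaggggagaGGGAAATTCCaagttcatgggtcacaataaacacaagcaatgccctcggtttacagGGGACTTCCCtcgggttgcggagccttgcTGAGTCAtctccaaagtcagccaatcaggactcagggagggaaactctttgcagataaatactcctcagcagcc
Cxcl9: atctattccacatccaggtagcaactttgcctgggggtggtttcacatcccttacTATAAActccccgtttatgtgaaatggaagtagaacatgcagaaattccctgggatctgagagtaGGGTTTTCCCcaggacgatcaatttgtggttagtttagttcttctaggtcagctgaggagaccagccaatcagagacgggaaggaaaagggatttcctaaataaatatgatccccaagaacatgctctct
Motifs were searched on both strands: ISRE, an interferon response element (a doubled GAAA with 2 bases between), GAS, the gamma-interferon activation element (TTC and GAA with 3 bases between), kappaB (GGGA and CC with 4 bases between), the AP-1 letters TGANTCA and the TATA box TATAAA. Cxcl10 held the ISRE letters as GAAAGTGAAA, 213 to 204 bases before the start, the kappaB letters as GGGAAATTCC (159 to 150 bases before) and GGGACTTCCC (103 to 94 bases before), and the AP-1 letters as TGAGTCA (74 to 68 bases before). Cxcl9 held the kappaB letters on the other strand, seen here as GGGTTTTCCC, and a TATAAA. Among 32851 promoters of this length, 2.977% held the ISRE letters, 7.02% GAS, 17.63% kappaB, 6.749% AP-1 and 12.37% the TATA letters. A match is a description of letters, not of a bound site.

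The values were log2 CPM, where CPM is a count scaled to the size of its library, with 3141641 reads in regions in MM replicate 2 to 5986835 in MT replicate 1. A region with 0 reads reads -0.70. The reads of both MP libraries agreed within counting noise (chi-square per region 1.003 over 53710 regions, p = 0.285) and were counted as 1 sample, their mean, although both values are printed. The other groups ranged from 1.07 to 2.71, highest in PT, whose replicates also had the lowest correlation over regions, 0.919. The log2 values of the MM libraries had the widest spread over regions (SD 1.24, against 0.984 to 1.18 in the others), and values under quantile normalization, which gives every library one spread, are given where they end a call at the members, the Cxcl10 start or the Cxcl11 end. Regions within 1 kb of a gene end were found for 8 of 8 macrophage markers (group means 4.07 to 4.63), 2 of 7 for T and NK cells (3.82 to 4.66), 0 of 5 for B cells, 2 of 6 for neutrophils (3.90 to 5.19), 1 of 5 for dendritic cells (2.34 to 3.24) and 0 of 6 for fibroblasts and endothelium. Neutrophil marker regions were lowest in MM and highest in CL, and their part in the results was not tested.

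After polyI:C the body of Cxcl10 was open, while in medium it was nearly closed. The region at 92347089 to 92347590, 1550 bases past the Cxcl10 start and 701 bases from the far end of the gene, stood at 4.82 and 4.99 in MP, against 0.74 and 0.31 in MM. These are 153 and 145 reads against 6 and 2. The groups were far apart, and the difference was 4.38 ± 0.39 (log2 ± SE, limma adjusted p = 1.74e-10). After CpG the same region stood at 3.55 and 2.97 (54 and 39 reads), clear of MM, by 2.74 ± 0.32 (limma adjusted p = 2.37e-08). After LPS alone it stood at 1.22 and 1.46 with 9 and 12 reads, above both MM libraries, and the difference of 0.81 ± 0.32 did not pass (limma adjusted p = 0.0594), although it passed without either MT or either PT library (0.0395 to 0.0421). Under quantile normalization this LPS difference was -0.0066, so its direction rests on the scaling. After TNF it stood at -0.07 and 0.90, on both sides of the MM values, and the difference was -0.11 ± 0.32 (limma adjusted p = 0.922).

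The second region in the Cxcl10 body, at 92348132 to 92348633 and 507 bases past the start, ranked MP, MC, ML, MT and MM from high to low. It stood at 4.25 and 4.29 in MP, 3.21 and 3.04 in MC, 1.53 and 1.94 in ML and 0.84 and 0.69 in MT, against 0.58 and 0.31 in MM. No 2 of these groups overlapped. It rose by 3.83 ± 0.35 in MP, 2.68 ± 0.29 in MC and 1.29 ± 0.29 in ML (limma adjusted p = 3.42e-10, 4.22e-09 and 0.00107), and the 0.32 ± 0.29 in MT did not pass (limma adjusted p = 0.662). With quantile normalization the ML rise was 0.46 and lost its call (limma adjusted p = 0.289).

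The start of Cxcl10 behaved otherwise. The region at 92348709 to 92349210, whose midpoint is 70 bases before the start, covers the whole printed promoter and is counted to Art3 by distance. It stood at 5.65 and 5.55 in MP, 4.96 and 5.10 in MC, 4.99 and 5.06 in ML and 4.63 and 4.69 in MT, against 3.67 and 3.37 in MM. It was thus open in medium too, and every stimulus raised it: by 2.09 ± 0.18 in MP, 1.52 ± 0.15 in MC, 1.51 ± 0.15 in ML and 1.14 ± 0.15 in MT (limma adjusted p = 9.97e-11, 4.87e-10, 8.55e-10 and 1.07e-06). TNF passed here and missed at both body regions, though the difference between these places was not tested.

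**Figure D1:**
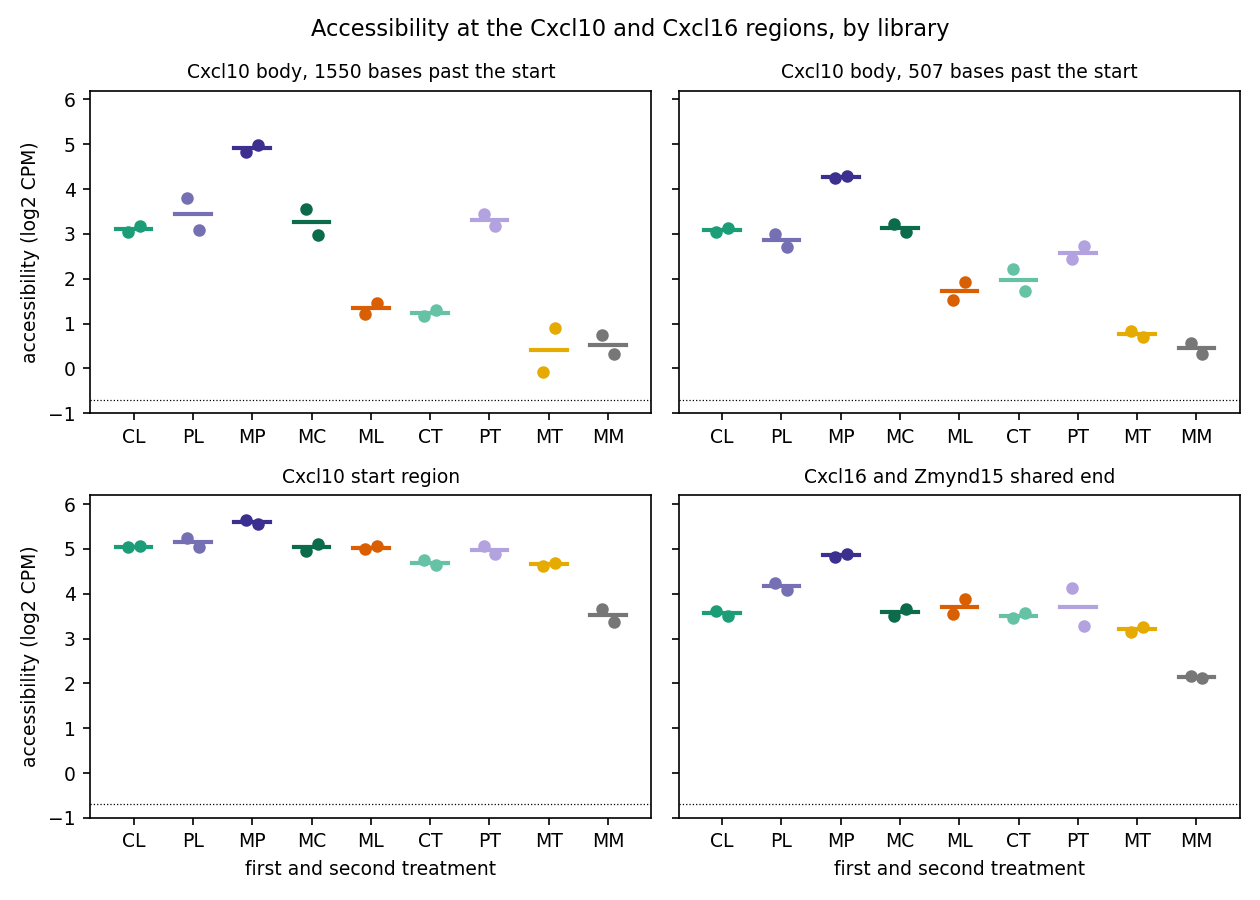
Accessibility (log2 CPM, y axis) of both Cxcl10 body regions, the Cxcl10 start region and the Cxcl16 region in the 9 groups (x axis, named by first and second treatment); points are libraries, bars group means and the dotted line 0 reads. MT and MM lie between -0.07 and 0.90 in the body regions, while at the start region only MM lies below 4.

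Cxcl16 had 1 region, at 70459641 to 70460142 on chromosome 11. Its midpoint is 93 bases inside the Cxcl16 end at 70459984, where Zmynd15, a neighbouring gene that starts or ends at 70459433, overlaps Cxcl16. It stood at 4.81 and 4.89 in MP, 3.50 and 3.67 in MC, 3.54 and 3.88 in ML and 3.14 and 3.27 in MT, against 2.16 and 2.13 in MM (22 and 12 reads). All 4 stimuli lifted it clear of medium, by 2.71 ± 0.27 in MP, 1.44 ± 0.22 in MC, 1.56 ± 0.22 in ML and 1.06 ± 0.22 in MT (limma adjusted p = 1.86e-09, 4.24e-06, 1.44e-06 and 0.00141). The MT rise was 0.77 with quantile normalization (limma adjusted p = 0.0517).

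Beside Cxcl11 a region at 92363052 to 92363553, its midpoint 6 bases beyond the Cxcl11 end and 14413 bases before the Cxcl10 start, had a polyI:C pattern of its own. It stood at 4.12 and 4.05 in MP, 1.42 and 1.60 in MC, 1.87 and 2.39 in ML and 1.86 and 1.39 in MT, against 0.40 and 0.90 in MM. MP stood far above the rest, by 3.44 ± 0.36 over MM (limma adjusted p = 4.74e-09), and MC was among the low groups here. ML rose by 1.48 ± 0.29 (limma adjusted p = 0.00027), with 0.73 under quantile normalization (0.0890). The MC and MT calls against MM, 0.86 ± 0.29 and 0.97 ± 0.29 (limma adjusted p = 0.0276 and 0.0385), were fragile: MC was lost without MM replicate 1 (0.61) or without either MC library and turned to -0.20 under quantile normalization, and MT was lost without MM replicate 1, MT replicate 1 or either PL library, and under quantile normalization (0.45, limma adjusted p = 0.619), log2(CPM + 1), voom or a fit of the compared groups only. Cxcl9, at 92321331 to 92328079, had no region in its body; the nearest midpoint on the Cxcl10 side was 17125 bases away and the nearest on the other side, at an end of Sdad1, was 11308 bases away.

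Of the 3 members, 3 rose with polyI:C, 3 with CpG, 2 with LPS and 1 with TNF, and none fell. Over all regions the share that rose was 14.3% with polyI:C, 17.2% with CpG, 15% with LPS and 5.79% with TNF, and the share that fell was 8.28%, 8.79%, 9.55% and 0.573% in the same order. In the stretch inside Art3, 12 of 13 regions rose with polyI:C, 12 with CpG, 10 with LPS and 5 with TNF. Under quantile normalization the CpG count was 9. LPS then lost its calls at 92348132, 92363052 and 92370274, and TNF at 92344954 and 92363052. The TNF count was 3 without MM replicate 2 and 1 without MT replicate 1, and 3 with voom. Median differences over the 13 regions were 1.70 in MP, 1.04 in MC, 0.86 in ML and 0.49 in MT, while over all regions each of these medians lay within -0.01 and 0.01. Neighbouring regions share their locus and are not independent.

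Set against each other, polyI:C opened the members more than CpG or LPS. MP exceeded MC by 1.64 ± 0.39 at the 1550-base region, 1.15 ± 0.35 at the 507-base region and 1.27 ± 0.27 at Cxcl16 (limma adjusted p = 0.00374, 0.0267 and 0.00131), so 3 of 3 members were called, and 5.2% of all regions were called higher. The first of these was lost without MC replicate 2 (1.35, limma adjusted p = 0.061) and the second without MC replicate 1 (1.23) or MC replicate 2 (1.06). MP exceeded ML by 3.57 ± 0.39, 2.54 ± 0.35 and 1.14 ± 0.27 at the same places (limma adjusted p = 1.27e-07, 5.61e-06 and 0.00378), where the background was 6.24%. The Cxcl16 difference was 0.98 without ML replicate 1 (limma adjusted p = 0.0599). At the Cxcl11-end region MP exceeded MC by 2.58 ± 0.36 and ML by 1.96 ± 0.36 (limma adjusted p = 4.74e-06 and 0.000256).

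CpG was called above LPS at the Cxcl10 body and not at the Cxcl10 start, Cxcl16 or the Cxcl11 end. MC exceeded ML by 1.92 ± 0.32 at the 1550-base region and 1.39 ± 0.29 at the 507-base region (limma adjusted p = 0.000294 and 0.00287), 2 of 3 members with 3.74% of all regions called higher. The 507-base call was lost without MC replicate 1 (1.31, limma adjusted p = 0.0813) or ML replicate 1 (1.19, 0.0939). At the start region the difference was 0.01 ± 0.15 and at Cxcl16 -0.12 ± 0.22, with overlapping libraries. ML against MT gave 1 call, 0.97 ± 0.29 at the 507-base region (limma adjusted p = 0.0467, where 3.11% of all regions were called higher), and this call was lost without any 1 of the ML, MT, MC, CL or PL libraries and under quantile normalization (0.52, limma adjusted p = 0.347).

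**Figure D2:**
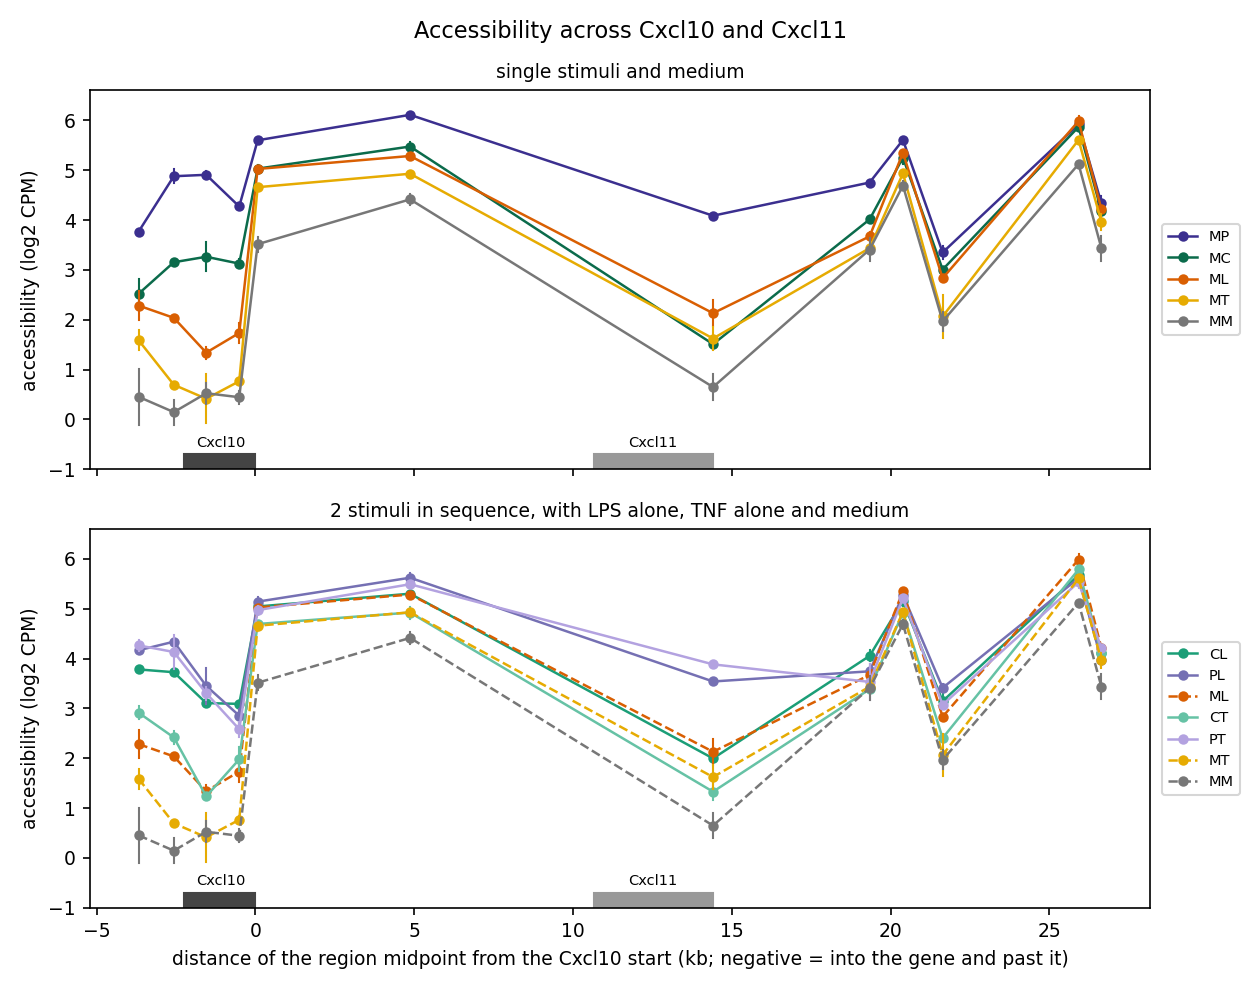
Group mean accessibility (log2 CPM, y axis, bars from the lower to the higher of 2 libraries) along Cxcl10 and Cxcl11, for single stimuli above and sequences of stimuli below. The x axis is the distance of the region midpoint from the Cxcl10 start (kb), where negative values lie in the gene and past it. The groups fan out over the Cxcl10 body and again beside Cxcl11, 14413 bases upstream, and lie closer at 20386 bases; the most distant region of the stretch is not drawn.

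The region just past the far end of Cxcl10 carried the body pattern, and the next one did so in part. At 92346065 to 92346566, 2574 bases past the start and 323 bases beyond the gene, the values were 5.02 and 4.74 in MP, 3.11 and 3.19 in MC, 2.01 and 2.06 in ML and 0.70 and 0.69 in MT, against 0.40 and -0.10 in MM. MP exceeded MM by 4.73 ± 0.32, the highest polyI:C difference of the 31 regions listed, and MT by 0.55 ± 0.26 without passing (limma adjusted p = 0.267). At 92344954, 3685 bases past the start, MP exceeded MM by 3.31 ± 0.36 and MC by 2.07 ± 0.29 (limma adjusted p = 7.24e-09 and 8.65e-07). On the other side, 4873 bases before the start, the region at 92353512 was well open in every group, at 6.06 and 6.16 in MP against 4.30 and 4.53 in MM. Beyond 20 kb the differences in MP were smaller, 0.80 to 1.38 at 4 regions, and the region at 92398157, 35111 bases from the Cxcl11 end, was called in no comparison.

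A first treatment with CpG or polyI:C, then LPS, left the Cxcl10 body more open than LPS alone. No group had CpG or polyI:C first and medium second. Opening kept from the first ligand and a changed response to LPS or TNF therefore cannot be told apart. The 1550-base region stood at 3.05 and 3.17 in CL and 3.81 and 3.10 in PL, against 1.22 and 1.46 in ML. Both groups were clear of ML, by 1.77 ± 0.32 in CL and 2.11 ± 0.32 in PL (limma adjusted p = 0.000213 and 1.11e-05). The 507-base region stood at 3.05 and 3.14 in CL and 3.00 and 2.71 in PL, against 1.53 and 1.94 in ML, differences of 1.36 ± 0.29 and 1.12 ± 0.29 (limma adjusted p = 0.00126 and 0.00466). The PL call at the 507-base region was lost without ML replicate 1 (0.92) or PL replicate 1 (0.98).

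At the start region and Cxcl16 no such difference was called, and the difference between these places and the body was not tested. At the start the libraries read 5.03 and 5.06 in CL and 5.24 and 5.04 in PL, against 4.99 and 5.06 in ML, with differences of 0.02 ± 0.15 and 0.12 ± 0.15. At Cxcl16 they read 3.62 and 3.51 in CL and 4.25 and 4.08 in PL, against 3.54 and 3.88 in ML. CL overlapped ML there (-0.14 ± 0.22), and PL lay above it by 0.46 ± 0.22 without passing (limma adjusted p = 0.136). In a fit of the compared groups only, the PL difference passed (limma adjusted p = 0.0353). Thus 2 of 3 members were higher in CL and 2 in PL, with 9.95% and 13.5% of all regions higher. In the stretch inside Art3, 4 of 13 regions were higher in CL, all of them in the Cxcl10 body or within 2 regions past it. In PL 5 of 13 were higher and 1 was lower (9.36% of all regions were lower in PL). The lower one, at 92374564, lost its call under 5 alternatives, among them quantile normalization (-0.27, limma adjusted p = 0.0939).

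At the Cxcl11 end the first treatments parted. The region read 2.06 and 1.93 in CL and 3.52 and 3.57 in PL, against 1.87 and 2.39 in ML. CL lay within the ML values (-0.13 ± 0.29), while PL exceeded ML by 1.41 ± 0.29 (limma adjusted p = 0.000653). CL against PL was -1.54 ± 0.29 (limma adjusted p = 0.00101), 1 of 13 regions of the stretch called lower where 4.23% of all regions were. Among members CL against PL gave 0 calls with limma, 1 at an unadjusted p under 0.05 and 1 with voom, a test on the recovered reads (8.47% of all regions were called in either direction). That region was Cxcl16, at -0.60 ± 0.22 (limma adjusted p = 0.0878), which passed without either PT library (0.0350 and 0.0319).

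Before TNF the 2 first treatments differed at the 1550-base region, and whether by more than before LPS was not tested. The 1550-base region stood at 1.16 and 1.31 in CT and 3.43 and 3.18 in PT, against -0.07 and 0.90 in MT. PT was clear of MT by 2.89 ± 0.32 (limma adjusted p = 4.29e-08), and CT lay above both MT libraries by 0.82 ± 0.32 without passing (limma adjusted p = 0.0759; 1.31 and 0.0176 without MT replicate 2). Without MT replicate 1 that difference was 0.34, and under quantile normalization 0.04. The 507-base region stood at 2.22 and 1.74 in CT and 2.44 and 2.73 in PT, against 0.84 and 0.69 in MT. Both groups exceeded MT there, by 1.21 ± 0.29 and 1.82 ± 0.29 (limma adjusted p = 0.00289 and 1.68e-05). The CT call was lost without CT replicate 1 (0.97, limma adjusted p = 0.0729) and under quantile normalization (0.49, 0.283).

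After TNF, too, the start region moved little: it read 4.75 and 4.64 in CT and 5.06 and 4.88 in PT, against 4.63 and 4.69 in MT, with differences of 0.03 ± 0.15 and 0.31 ± 0.15 that did not pass. At Cxcl16 the PT libraries disagreed, at 4.12 and 3.27, with 3.45 and 3.56 in CT, against 3.14 and 3.27 in MT. The PT difference was 0.49 ± 0.22 (limma adjusted p = 0.0935), 0.92 without PT replicate 2 (0.00407) and 0.07 without PT replicate 1, so the result rests on which library is kept. The Cxcl11-end region read 1.16 and 1.50 in CT and 3.95 and 3.82 in PT, against 1.86 and 1.39 in MT. PT was 2.26 ± 0.29 above MT (limma adjusted p = 7.52e-07) and CT overlapped MT. In the stretch, 3 of 13 regions were higher in CT and 7 in PT. In all, 1 of 3 members was higher in CT and 2 in PT, with 10.6% and 15% of all regions higher.

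CT against PT was -2.07 ± 0.32 at the 1550-base region (limma adjusted p = 1.23e-05), the 1 member called lower of 3, with 14.6% of all regions lower. It was -2.56 ± 0.29 at the Cxcl11 end (limma adjusted p = 9.32e-08). At the 507-base region it was -0.60 ± 0.29, with libraries that did not overlap but no call (limma adjusted p = 0.105). In the stretch inside Art3, 6 of 13 regions were lower in CT than in PT, with 4 to 6 when 1 library was left out, lowest without CT replicate 2, and 1 region was called higher in CT without PT replicate 1. At 92346065 the values were 2.56 and 2.28 in CT and 4.47 and 3.79 in PT, against 0.70 and 0.69 in MT, so there CpG before TNF also exceeded TNF alone, by 1.72 ± 0.26.

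Whether a first treatment acted otherwise under LPS than under TNF was tested as a difference of differences. For CpG it was 0.95 ± 0.45 at the 1550-base region, 0.14 ± 0.41 at the 507-base region and -0.45 ± 0.31 at Cxcl16, and for polyI:C -0.78 ± 0.45, -0.70 ± 0.41 and -0.04 ± 0.31. Limma called 0 of 3 members in either test, with 1 and 0 at an unadjusted p under 0.05 and 0 and 0 with voom. Over all regions 0.245% were called for CpG and 0% for polyI:C, where 2597 regions had an unadjusted p under 0.05 and voom called 0.

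PL and PT had polyI:C in the first 4 h and MP in the last 4 h, so their values are set side by side without a test. At the 1550-base region they were 3.81 and 3.10 in PL, 3.43 and 3.18 in PT and 4.82 and 4.99 in MP. At the Cxcl11 end they were 3.52 and 3.57 in PL, 3.95 and 3.82 in PT and 4.12 and 4.05 in MP. CL and CT differ from MC in timing likewise: at the 1550-base region they read 3.05 and 3.17 in CL, 1.16 and 1.31 in CT and 3.55 and 2.97 in MC. At 92344954 the order was another, with 4.20 and 4.14 in PL, 4.38 and 4.15 in PT and 3.75 and 3.78 in MP.

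The order of all groups by mean at the 1550-base region was MP, PL, PT, MC, CL, ML, CT, MM and MT. MP stood alone, the next 4 overlapped neighbour by neighbour, ML overlapped CT, and MM overlapped MT. At Cxcl16 it was MP, PL, ML, PT, MC, CL, CT, MT and MM, where neighbours from ML to CT overlapped and MP, PL, MT and MM each stood clear of the groups next to them. At the start region MP was first and MM last, both clear of their neighbours, with PL, CL, MC, ML and PT overlapping in turn between them and then CT overlapping MT.

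**Figure D3:**
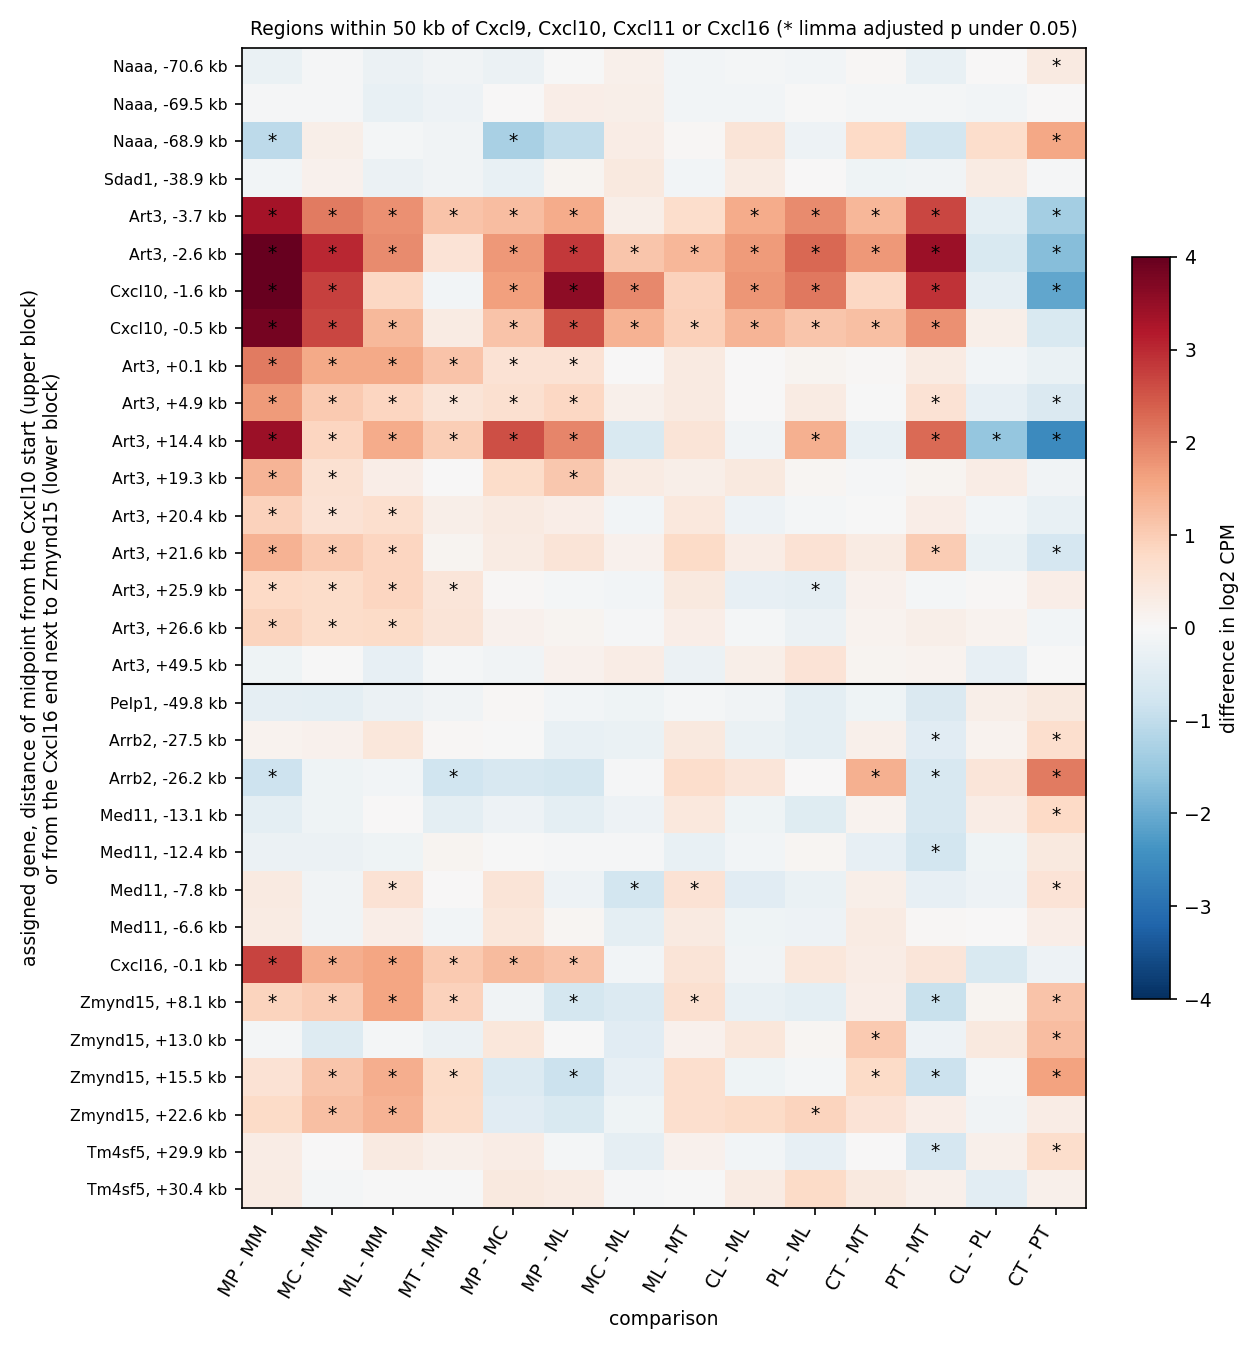
Differences in log2 CPM (colour, the first group minus the second as written on the x axis) at the 31 regions listed near the 4 genes, by gene assigned and distance (y axis; Cxcl9, Cxcl10 and Cxcl11 above the line, Cxcl16 below). Asterisks mark limma calls; the deepest reds lie in and just past the Cxcl10 body in MP - MM, and the region 323 bases beyond the gene reaches 4.73.

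Around Cxcl16 most of the 14 regions listed did not share its response. With polyI:C 2 of them rose and 1 fell, with CpG 4 rose, with LPS 5 rose and with TNF 3 rose and 1 fell. Both falls were at 70433530 and were fragile, lost under 13 alternatives with polyI:C and 8 with TNF. The LPS rise at 70451937 was lost without any 1 of the ML or MM libraries. These 14 include the Cxcl16 region itself. Over all regions 14.3%, 17.2%, 15% and 5.79% rose, so 2 of 14 with polyI:C is at the background. The counts that rose with CpG, LPS and TNF lay above it, though neighbouring regions are not independent. Several of these calls were lost under quantile normalization: TNF at 70475189 (0.70) and Cxcl16 (0.77), and CpG (0.51) and LPS (0.83) at 70482385. The TNF call at 70475189 was also lost with voom. A neighbour at 70467868, 8134 bases from the Cxcl16 end, rose most with LPS (1.58 ± 0.18, against 0.90 in MP), whereas Cxcl16 rose most with polyI:C. There MP lay below ML by 0.69 (limma adjusted p = 0.0363, lost without either ML library). In PT against MT 6 of the 14 regions fell and none rose, and in CT against PT 8 were higher, with 12.7% of all regions lower in PT and 17.3% higher in CT. PT replicate 2 read below PT replicate 1 at 14 of 14 of these regions, against 50.22% of all regions. Without PT replicate 2 the PT against MT count was 1 higher and 0 lower, and the CT against PT count 3; without PT replicate 1 they were 9 lower and 11 higher.

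**Figure D4:**
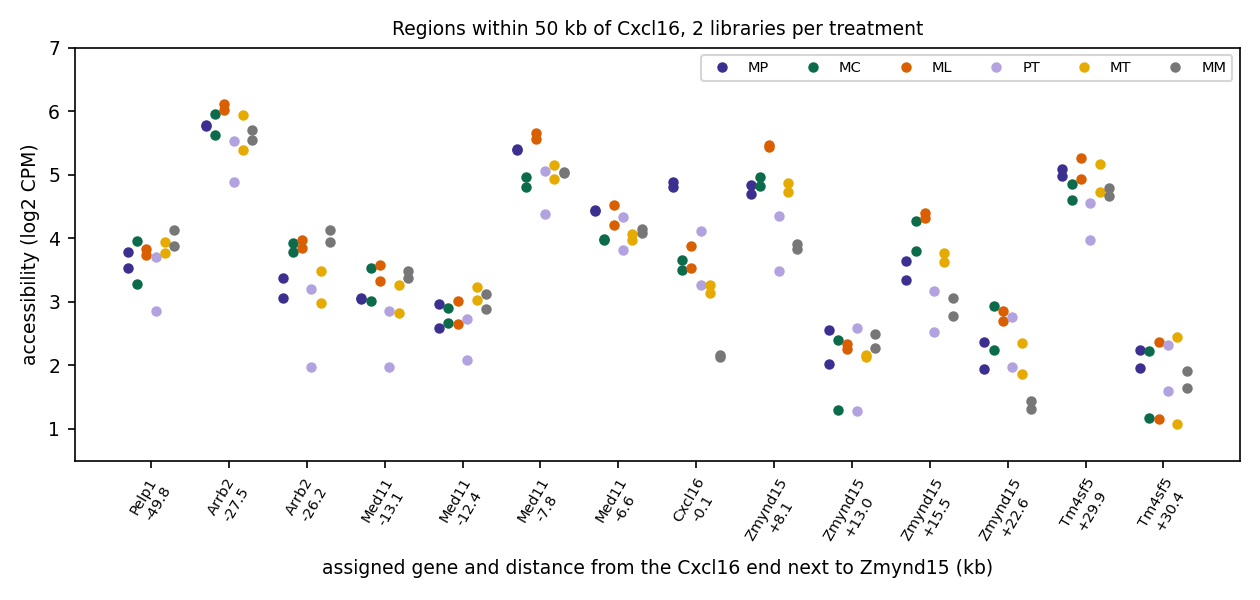
Accessibility of each library (log2 CPM, y axis) at the 14 regions within 50 kb of Cxcl16 in 6 groups, by gene assigned and distance from the Cxcl16 end next to Zmynd15 (kb, x axis). At the Cxcl16 region MP lies highest and MM lowest, and the lower PT point is replicate 2 in all 14 columns.

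Genes upstream and downstream of these chemokines had smaller median differences. A list of 23 genes for the receptors, proteases, interferon receptors, kinases and factors of this axis had 126 regions at 21 genes. With polyI:C 33 of these rose and 10 fell, with CpG 32 and 8, with LPS 29 and 5 and with TNF 10 and 1. The shares that rose were 26.2%, 25.4%, 23.0% and 7.94%, against 14.3%, 17.2%, 15% and 5.79% of all regions, and the shares that fell 7.94%, 6.35%, 3.97% and 0.794%, against 8.28%, 8.79%, 9.55% and 0.573%. The median differences were 0.27 in MP, 0.13 in MC, 0.20 in ML and 0.04 in MT, against 1.70, 1.04, 0.86 and 0.49 in the stretch inside Art3. For a prior stimulus, 22 rose and 10 fell in PL against ML, 13 and 7 in CL against ML, 22 and 13 in PT against MT and 23 and 5 in CT against MT. The shares that rose were 17.5%, 10.3%, 17.5% and 18.3%, against 13.5%, 9.95%, 15% and 10.6% of all regions, and the shares that fell 7.94%, 5.56%, 10.3% and 3.97%, against 9.36%, 5.76%, 12.7% and 5.65%. In CL against ML the list thus lay near the share over all regions.

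Irf7, the factor that amplifies type I interferon, had the widest change among regions at the ends of listed genes. Its region (chromosome 7, 141266208 to 141266709) read 5.66 and 5.66 in MP and 4.84 and 4.79 in MC, against 3.72 and 3.64 in MM. MP was 1.97 ± 0.24 and MC 1.13 ± 0.20 above MM (limma adjusted p = 9.29e-08 and 2.73e-05). The same region read 5.20 and 5.45 in PL, against 4.41 and 4.23 in ML, and 5.37 and 4.71 in PT, against 3.84 and 3.02 in MT, rises of 1.00 ± 0.20 and 1.61 ± 0.20 (limma adjusted p = 0.000322 and 2.37e-07). Prior CpG raised it too, by 1.40 ± 0.20 in CT against MT (limma adjusted p = 2.35e-06) and by 0.69 ± 0.20 in CL against ML (0.0147), the second of these lost without any 1 of the CL or ML libraries. At Adam10 and Adam17, which release CXCL16, the end regions were called in none of the 4 single stimuli.

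Regions with the most similar pattern over the 9 group means were picked by Pearson correlation, with the best region kept per gene. Left out were regions of the 4 genes, Art3, Zmynd15 and genes with Gm, LOC or Rik names, and regions assigned to no gene. Neighbours in the Art3 stretch could therefore not be listed. For the 1550-base region they were assigned to Acvr1 (0.983), Rsph14 (0.982) and Man2a1 (0.978), and for Cxcl16 to Sik3, Tgm3 and Cdc37 (each 0.981). Nearest to the Cxcl10 start region were Marcksl1 (0.991), Tagap (0.985) and Cdc37 (0.984), and to the Cxcl11-end region Rasgrp1 (0.989), Cst7 (0.987) and Grm5 (0.985); these last 2 regions were chosen after their values were seen. All points share the same 18 libraries, and the correlations were picked as the highest over the regions searched.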

How the data were processed

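ATAC-seq was made from 18 libraries of 9 treatments. Per the submitters' processing notes, the tools before deposit included featureCounts, MACS3 3.0.0b1, Picard, SAMtools 1.9 and Bowtie2 2.2.5, on mm10; settings and the merging of regions are not given in the sources used here. The authors deposited log2 CPM per region and library, and these log2 values returned whole reads for 100% of regions within 0.01, with a mean prior of 3 reads, which understates differences of regions with few reads. Reads in regions ranged from 3141641 to 5986835.

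All 53796 regions entered 1 linear model of the 9 groups (limma 3.58.1, R 4.3.3) without a filter, with trended empirical Bayes variances (8 residual and 26.64 prior degrees of freedom), and p-values were adjusted by Benjamini and Hochberg over all regions, called under 0.05. The median SE of a difference was 0.208, or 0.255 with MP. The 2 MP libraries entered as their mean, so no spread between them entered the p-values. The fit was also run on simulated reads with known changes in CL only and the same noise setting in all libraries. Groups of the data differ in their spread, so that run does not give error rates for these comparisons. Regions were assigned to the nearest of 21901 genes of RefSeq, protein-coding ones and Cxcl11.

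Named in full were member regions within 1 kb of a gene end; the start, Cxcl11-end and other stretch regions were named after their values were seen. For the pathway list, the end region with the smallest p was taken per gene and comparison, and like patterns needed a highest group mean of at least 3. Members, lists and rules were chosen with earlier results of these data known. The labels give no origin for replicate numbers, so no block was used. Replicate differences correlated at -0.358 to 0.242 over 36 pairs of groups, 5 of them over 0.1. These mixed values do not settle whether libraries were paired. The alternatives were other normalizations, filters, offsets, variance models, sample sets, voom and each library outside MP left out. Neither MP library was left out, so dependence of the MP differences on either of them was not tested.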

Additional observations from a re-analysis of the deposited data

How the results depend on the processing

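Of 26 calls at the 3 member regions, 9 lost the threshold under some alternative and 0 turned direction over 682 repeats; quantile normalization kept 22. Counts below are of member regions called, and no MP library was left out in any fit. With the lowest 25% of regions by mean level left out, Cxcl16 alone remained, so fewer regions were counted: 1 in MC, ML and MP against MM, in MP - MC and in MP - ML, and 0 in MC - ML, ML - MT, CL - ML, PL - ML, CT - MT, PT - MT and CT - PT. Under quantile normalization they were 1 in ML - MM and CL - PL, 0 in MT - MM, ML - MT and CT - MT, and 2 in CT - PT. ML - MT gave 0 with log2(CPM + 1), only the compared groups or voom and 2 with sample weights, and CL - PL gave 1 with the last 3 of these. CT - PT gave 2 without a variance trend. Counting all 31 regions within 50 kb gave 16 in MC - MM, 15 in ML - MM, 16 in MP - MM, 9 in MT - MM, 9 in MP - MC, 11 in MP - ML, 4 in MC - ML, ML - MT and CL - ML, 7 in PL - ML, 6 in CT - MT, 13 in PT - MT, 1 in CL - PL and 16 in CT - PT. Leaving out 1 library gave 1 to 3 in MP - MC, 1 to 2 in MC - ML and PL - ML, 0 to 2 in ML - MT and CT - MT, 0 to 1 in CL - PL and 2 to 3 in ML - MM, MP - ML and PT - MT. The Cxcl11-end difference MC - MM turned to -0.20 under quantile normalization; apart from the smaller set of regions, the cause was not tested. With the replicate number as a block and MP as 2 samples, 3 were called in ML - MM, as with MP as 2 samples alone, and every other count was as reported. Depth limits the closed state: the Cxcl10 body regions held 2 to 6 reads in MM, so its level there and ratios to it are imprecise.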
